A study of Homo sapiens with 5 samples.

Results

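The PI3K-like giant kinases, PRKDC, ATM, ATR, MTOR, SMG1 and TRRAP, were found by gene symbol in the count table, which held rows for all 6 among 25382 genes. They were chosen by a difference seen earlier in their read counts in these same libraries, weakly against strongly adherent. They were followed in MDA-MB231 cells, a human breast cancer line of mesenchymal character without estrogen or progesterone receptor, that shear stress had separated into weakly and strongly adherent populations. There were 3 weakly adherent libraries, dated 6, 12 and 15 March in their titles, and 2 strongly adherent libraries, dated 6 and 15 March, all from cells grown in the same serum-containing medium. Total RNA was sequenced, and each library held 19630386 to 21707459 reads assigned to genes. The labels do not say whether the libraries came from separate cultures, so p-values measure only the spread between these libraries. The groups were made by the shear itself, so a response to shear and a difference the cells had before cannot be told apart, nor can more cells of a kind and more RNA per cell.

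These kinases are related to the lipid kinase PI3K by the fold of their catalytic domain, but the active ones phosphorylate proteins, and each is a very large protein built mostly of helical repeats. PRKDC is the catalytic subunit of DNA-PK, which joins broken DNA ends. ATM answers double-strand breaks and ATR answers single-stranded DNA at stalled replication forks. MTOR drives growth as the core of a pair of complexes that read nutrients and growth factors. SMG1 phosphorylates UPF1 during nonsense-mediated decay, the removal of messages with early stop codons. TRRAP has lost kinase activity and serves as the scaffold of the TIP60 and SAGA histone acetyltransferase complexes, to which MYC and other factors bind.

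Of the markers listed for the line, 3 of 4 expected to be expressed were high, and 2 of 4 expected to be low had no read. VIM ran from 2458 to 2621 CPM (reads per 1000000 gene reads, with TMM scaling) in weakly and from 2652 to 2746 CPM in strongly adherent libraries, CD44 from 1471 to 1522 and from 1614 to 1696 CPM, EGFR from 245 to 278 and from 227 to 241 CPM, and ESR1 and PGR had no read in any. CDH1 was at 1.18 to 1.57 CPM in weakly and 1.27 to 2.07 CPM in strongly adherent libraries, and EPCAM, against its place among the low genes, at 21.4 to 25.8 and 19.4 to 21.2 CPM. SPARC, also listed as a marker of the line, was at 0.19 to 0.5 CPM in weakly and 0.33 to 0.591 CPM in strongly adherent libraries, against its place in that list. Of the listed markers of other cells, PTPRC and ALB reached at most 0.255 and 0.0475 CPM, PECAM1 ran from 0.998 to 1.5 CPM in weakly and 0.682 to 0.706 CPM in strongly adherent libraries, and COL1A1 from 11 to 13 and from 7.23 to 10.8 CPM. Their part in the results was not tested.

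The 250 bases before the first listed start are shown for SMG1, ATM, ATR and MTOR, from RefSeq on GRCh38.p14, to set the kinases with the largest and the smallest difference between the adhesion groups, SMG1 and MTOR, side by side with 2 others. Those of PRKDC and TRRAP are not shown here. Capitals mark every match on either strand to CCAAT, the cell cycle element CHR (TTTGAA), E2F (TTTCCCGC or TTTGGCGC), NRF1 (GCATGCGC), the GC box (GGGCGG) and YY1 (AAGATGG). A pair of GC boxes in SMG1 shares a base, and no other matches overlap in these sequences.
SMG1 (chr16:18926409-18926658, minus strand): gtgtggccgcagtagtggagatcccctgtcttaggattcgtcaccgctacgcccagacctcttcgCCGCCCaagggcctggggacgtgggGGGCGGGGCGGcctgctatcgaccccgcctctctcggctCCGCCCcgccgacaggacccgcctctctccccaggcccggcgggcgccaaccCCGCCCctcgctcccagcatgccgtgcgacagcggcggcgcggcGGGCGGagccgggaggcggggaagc
ATM (chr11:108222817-108223066, plus strand): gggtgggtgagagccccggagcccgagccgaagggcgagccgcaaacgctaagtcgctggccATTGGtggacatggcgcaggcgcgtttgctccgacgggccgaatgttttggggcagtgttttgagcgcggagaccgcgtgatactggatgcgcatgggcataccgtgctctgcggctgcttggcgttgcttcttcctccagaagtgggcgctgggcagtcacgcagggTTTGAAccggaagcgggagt
ATR (chr3:142578734-142578983, minus strand): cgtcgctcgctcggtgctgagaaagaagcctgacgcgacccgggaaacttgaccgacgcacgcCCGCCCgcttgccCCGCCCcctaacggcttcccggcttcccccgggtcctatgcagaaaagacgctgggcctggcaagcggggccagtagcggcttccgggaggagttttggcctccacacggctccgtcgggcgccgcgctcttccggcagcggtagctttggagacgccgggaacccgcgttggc
MTOR (chr1:11262552-11262801, minus strand): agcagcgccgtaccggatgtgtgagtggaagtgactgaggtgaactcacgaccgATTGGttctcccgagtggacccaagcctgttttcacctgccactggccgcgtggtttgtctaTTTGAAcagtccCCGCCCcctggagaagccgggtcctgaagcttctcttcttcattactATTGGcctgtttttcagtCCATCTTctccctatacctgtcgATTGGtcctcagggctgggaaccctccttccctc

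The 4 promoters differed in which letters they held. SMG1 had 6 GC boxes and no other motif searched, and ATR had 2 GC boxes and no other. ATM had 1 CCAAT, read as ATTGG, and 1 CHR, with no GC box. MTOR had 3 CCAAT, 1 CHR, 1 GC box and 1 YY1 match. Of 35116 promoters of the same length, 32% held a CCAAT, 13.3% a CHR, 42.6% a GC box and 3.7% a YY1 match, while E2F and NRF1, matched in 1.93% and 2.63%, were in none of the 4. A match is a description of letters, not of a bound factor. The second listed start of ATM had 1 CCAAT and no CHR. At the first, ATM shared CCAAT and CHR with MTOR, and their differences between the adhesion groups were 1.72-fold and 1.15-fold. Whether any of these motifs has a part in the differences was not tested.

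GENCODE release 29, which is annotated on GRCh38 and not on the authors' build, places PRKDC on chromosome 8, ATM on 11, ATR on 3, MTOR on 1, SMG1 on 16 and TRRAP on 7. Their longest coding sequences have 12387 bases in 86 exons (PRKDC), 9171 in 63 (ATM), 7935 in 47 (ATR), 7650 in 58 (MTOR), 10986 in 63 (SMG1) and 11580 in 72 (TRRAP). The GC content of the longest transcript was 45.3% for PRKDC, 39.1% for ATM, 40% for ATR, 52.2% for MTOR, 43.2% for SMG1 and 52.7% for TRRAP. The protein-coding gene nearest to the start of PRKDC is MCM4, on the opposite strand, head to head with it. ATM overlaps NPAT and C11orf65, MTOR overlaps ANGPTL7 and TRRAP overlaps SMURF1 in that annotation. How strand was treated in counting is unknown. Reads shared by such genes may sit with either, or may have been set aside as ambiguous, as 1.1% to 1.16% of all reads were.

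All 6 kinases had more reads in every weakly adherent library than in either strongly adherent one. The size of the difference ran from 1.15-fold for MTOR to 2.10-fold for SMG1, with a median log2 fold change of 0.71, against -0.00054 over all 13297 genes tested. Since this comparison chose the kinases, its values are a description and carry no test. In edgeR's fit across all genes 4 of the 6 passed the threshold as higher (Benjamini-Hochberg adjusted p under 0.05), as did 1.77% of all genes tested. All 6 kinases have over 6 kb of coding sequence. Among genes of 6 to 8, 8 to 10 and over 10 kb, 18.2%, 50.7% and 53.2% passed as higher in that fit. The groups' libraries did not overlap in 6 of 6. Of all genes, 15.5% had every weakly adherent library above the strongly adherent ones, and 14.5% had every one below. With the date as a block, which gives the library of 12 March no weight, 6 of 6 passed, against 6.2% of all genes, and with the date as a random block in limma-voom 5 of 6, against 5.13%.

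**Figure D1:**
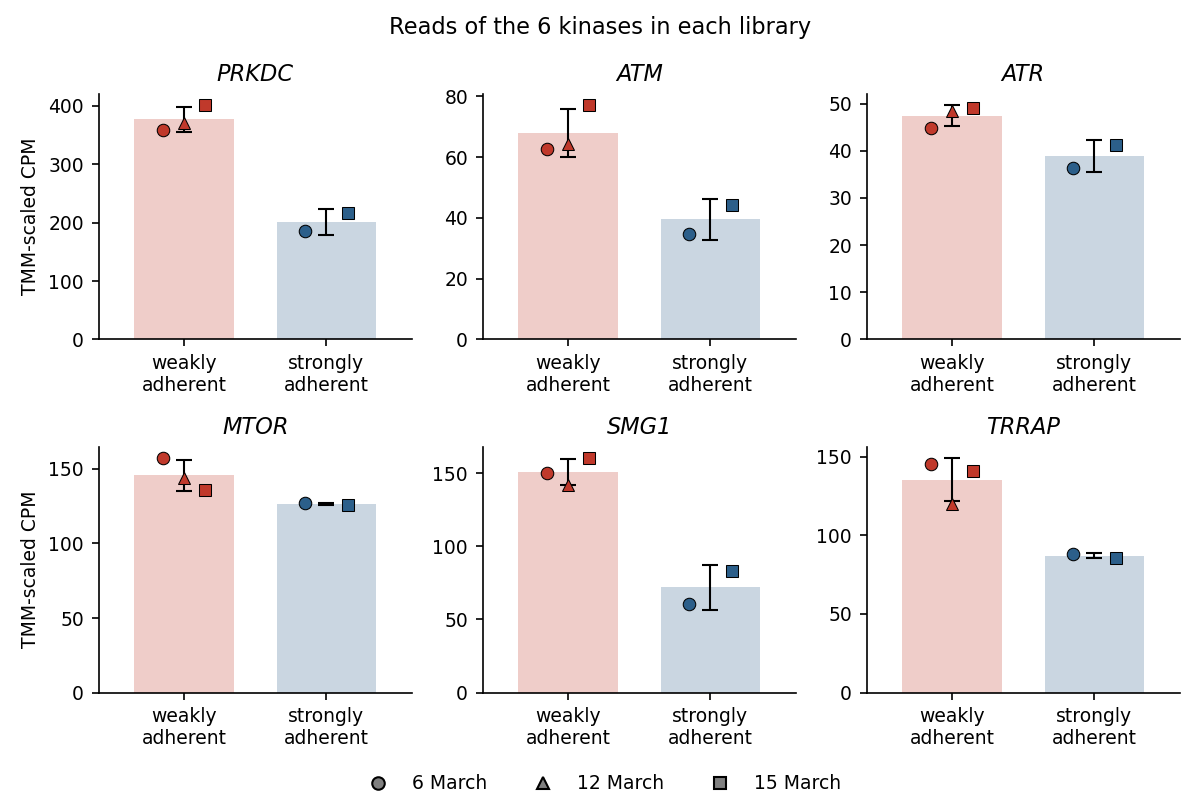
TMM-scaled CPM of each kinase, with 1 point per library (shape gives the date), bars at the group mean and error bars of 1 SD (3 weakly and 2 strongly adherent libraries). Every weakly adherent point lies above both strongly adherent points in each panel; for SMG1 the nearest points of the groups are 142 and 82.8 CPM, and for ATR 44.9 and 41.3 CPM.

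SMG1, the nonsense-mediated decay kinase, had 150, 142 and 160 CPM in weakly adherent cells on 6, 12 and 15 March, against 60.9 and 82.8 CPM in the strongly adherent libraries of 6 and 15 March. The lowest weakly adherent library thus stood well above the highest strongly adherent one, and the strongly adherent library dated 6 March was the lowest of all. The group means were 151 ± 9.21 and 71.8 ± 15.5 CPM (SD, n = 3 and n = 2), a log2 fold change of 1.07 (SE 0.12). Taken within dates it was 1.30 on 6 March and 0.95 on 15 March.

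SMG1 has several near-identical partial copies in the genome, and reads that fit a copy equally well may have been dropped as not unique or split. The 5 copies with a row in the table, SMG1P1, SMG1P2, SMG1P3, SMG1P5 and SMG1P7, together held 82, 73 and 73 reads in the weakly adherent libraries and 67 and 65 reads in the strongly adherent ones. SMG1 itself had 3162, 2771 and 3519 reads in the weakly adherent libraries, against 1294 and 1821 in the strongly adherent ones. How many SMG1 reads were lost as not unique cannot be read from these counts, so its level is uncertain. The part of such reads in its difference between the groups was not tested.

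PRKDC, the DNA-PK catalytic subunit and the most abundant of the 6 by reads, had 359, 370 and 401 CPM in weakly adherent libraries, against 185 and 217 CPM in strongly adherent ones. Weakly adherent cells had 1.87-fold more (377 ± 21.8 against 201 ± 22.7 CPM, SD, n = 3 and n = 2), a log2 fold change of 0.90 (SE 0.087). The pairs of 6 and 15 March gave 0.96 and 0.88, and the 6 possible pairs of a weakly with a strongly adherent library gave 0.73 to 1.12. PRKDC was thus higher in all 6 pairs, by unequal amounts.

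ATM, the kinase of double-strand break signalling, had 62.7, 64.3 and 77.1 CPM in weakly adherent libraries and 34.8 and 44.4 CPM in strongly adherent ones. In both groups the library of 15 March was the highest. The means were 68 ± 7.89 and 39.6 ± 6.77 CPM (SD, n = 3 and n = 2), a 1.72-fold difference with a log2 fold change of 0.78 (SE 0.12). Within dates it was 0.85 and 0.80.

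TRRAP, the acetyltransferase scaffold, had 145, 120 and 141 CPM in weakly adherent libraries, against 88 and 85.8 CPM in strongly adherent ones. The strongly adherent libraries nearly coincided, and the weakly adherent library of 12 March lay closest to them. The means were 135 ± 13.8 and 86.9 ± 1.53 CPM (SD, n = 3 and n = 2), 1.56-fold apart (log2 fold change 0.64, SE 0.09), and both dates gave 0.72. SMURF1, the ubiquitin ligase gene that overlaps TRRAP, had 108, 121 and 111 CPM in weakly and 103 and 105 CPM in strongly adherent libraries (log2 fold change 0.12, edgeR adjusted p = 0.53).

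ATR and MTOR differed least. ATR, the replication stress kinase, had 44.9, 48.4 and 49 CPM in weakly adherent libraries and 36.4 and 41.3 CPM in strongly adherent ones (47.4 ± 2.22 against 38.9 ± 3.42 CPM, SD, n = 3 and n = 2; log2 fold change 0.29, SE 0.091). MTOR had 157, 144 and 136 CPM in weakly adherent libraries, against 127 and 126 CPM in strongly adherent ones (145 ± 10.6 against 126 ± 0.507 CPM, SD, n = 3 and n = 2; log2 fold change 0.20, SE 0.078). Neither passed the all-gene threshold without the date block. For MTOR the pairs gave 0.31 on 6 March and 0.11 on 15 March, since the weakly adherent library of 15 March, the lowest of its group, came close to the strongly adherent ones. ANGPTL7, which lies within MTOR, had at most 0.095 CPM in any library.

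The differences were unequal, so the share of each kinase in the reads of all 6 is given too. These shares depend on one another and come from the values that chose the kinases, so they are a description only. Together the kinases held 0.0922% ± 0.00482 of gene counts in weakly and 0.0566% ± 0.00571 in strongly adherent cells (SD, n = 3 and n = 2). Of the reads of the 6, PRKDC took 39.1% to 41.7% in weakly adherent libraries and 34.8% to 36.4% in strongly adherent ones. SMG1 took 15.9% to 16.6% in weakly and 11.5% to 13.9% in strongly adherent libraries. MTOR took 14.1% to 17% in weakly adherent libraries, against 21.1% to 23.8% in strongly adherent ones, and ATR 4.88% to 5.46% against 6.85% to 6.91%. The shares of ATM, at 6.82% to 8% in weakly and 6.54% to 7.43% in strongly adherent libraries, and of TRRAP, at 13.5% to 15.8% and 14.4% to 16.5%, overlapped. A share falls when the others gain, so the lower shares of MTOR and ATR stand beside levels that were higher, not lower, in weakly adherent libraries.

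Per kilobase of coding sequence, the level that allows genes to be set side by side, PRKDC was highest in weakly adherent cells at 30.4 ± 1.76 CPM per kb. MTOR followed at 19 ± 1.39, SMG1 at 13.7 ± 0.839, TRRAP at 11.7 ± 1.19, ATM at 7.42 ± 0.861 and ATR at 5.98 ± 0.28 CPM per kb (SD, n = 3). No neighbours in that order had overlapping libraries. In strongly adherent cells MTOR stood at 16.5 ± 0.0662 and PRKDC at 16.2 ± 1.83 CPM per kb, then TRRAP at 7.5 ± 0.132, SMG1 at 6.54 ± 1.41, ATR at 4.9 ± 0.431 and ATM at 4.32 ± 0.738 CPM per kb (SD, n = 2). There the libraries of MTOR and PRKDC overlapped, as did those of TRRAP and SMG1 and those of ATR and ATM. Divided by transcript length instead, ATM came last in both groups; its longest transcript has 13147 bases.

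Profiles over the 5 libraries fell closest for PRKDC and ATM, whose log2 CPM, each centred on its own mean, differed by a root mean square of 0.088. PRKDC and SMG1 were 0.116 apart and ATR and MTOR 0.131, while MTOR and SMG1 were the farthest pair at 0.466. This distance is unscaled, so it also reflects the size of the log2 fold change, 0.20 for MTOR and 1.07 for SMG1. Of the 9343 genes that averaged 10 CPM or more, those nearest to PRKDC were VPS13D, a bridge-like lipid transfer protein, at 0.058, and TNRC6B, a microRNA silencing factor, at 0.061. The nearest to SMG1 were VPS13B and KIAA1109, further bridge-like proteins (0.072 and 0.081), and the nearest to TRRAP were the matrix protein FRAS1 and the nuclear pore protein RANBP2 (0.043 and 0.050). LPP and ZBED6 were nearest to ATM (0.068 and 0.072), IGF2R and FMN1 to ATR (both 0.015), and TYW1 and STARD8 to MTOR (0.015 and 0.017). Of these 12 genes, VPS13D, VPS13B, KIAA1109 and FRAS1 have coding sequences of 12039 to 15018 bases, while LPP has 1839 and TYW1 2199.

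The difference of the kinases moved with coding length. Across all genes tested, the median log2 fold change of weakly minus strongly adherent cells was 0.71 in the 79 genes with a coding sequence over 10 kb, 0.41 in the 75 of 8 to 10 kb, 0.21 in the 192 of 6 to 8 kb, and between -0.016 and 0.013 in each class under 4 kb. Among the 79 longest, SMG1 ranked 10th, PRKDC 18th and TRRAP 48th, at 0.35, 0.19 and -0.075 from their median. ATM ranked 10th of the 75 genes of 8 to 10 kb, 0.37 above their median. ATR and MTOR, both of 6 to 8 kb, ranked 67th and 102nd of 192, 0.073 above and 0.01 below the median of their class.

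**Figure D2:**
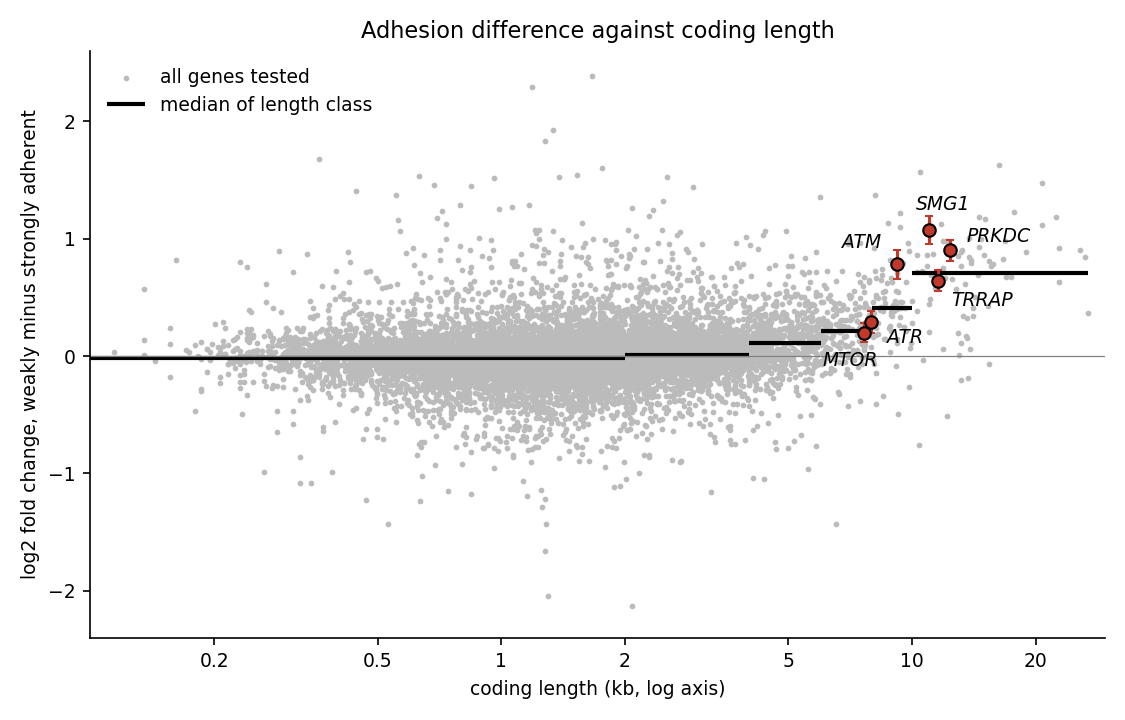
Log2 fold change, weakly minus strongly adherent, against coding length in kb (log axis) for all genes tested (grey), with the median of each length class (black lines) and the 6 kinases (red, error bars of 1 SE). SMG1, PRKDC and ATM lie above the line of their class, and TRRAP, ATR and MTOR lie on or near it.

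After subtraction of each library's coding length trend, the differences on the log2 scale were 0.60 (SE 0.10) for SMG1, 0.40 (SE 0.10) for ATM, 0.37 (SE 0.086) for PRKDC, 0.14 (SE 0.092) for TRRAP, -0.022 (SE 0.095) for ATR and -0.089 (SE 0.09) for MTOR. In that fit 3 of the 6 passed as higher, as did 0.94% of all genes. For SMG1, PRKDC and TRRAP the fitted trend took off less than the median of genes over 10 kb. Measured from that median they had 0.35, 0.19 and -0.075, so what remains depends on how length is taken off. Per library, the log2 deviation of SMG1 from its 5-library mean, less that trend, was 0.25, 0.21 and 0.27 in weakly adherent cells of 6, 12 and 15 March, and -0.52 and -0.21 in strongly adherent cells of 6 and 15 March. For PRKDC it was 0.093, 0.18 and 0.17 in weakly and -0.27 and -0.18 in strongly adherent libraries. For ATM it was 0.064, 0.13 and 0.30 in weakly and -0.37 and -0.12 in strongly adherent libraries. The groups of these 3 did not overlap in these values, for which the share of all genes without overlap was not counted.

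For the other three the groups overlapped once the trend was taken off. The same deviation of TRRAP was 0.17, -0.063 and 0.05 in weakly and 0.0032 and -0.16 in strongly adherent libraries. That of ATR was -0.074, 0.054 and -0.0057 in weakly and -0.036 and 0.062 in strongly adherent libraries, and that of MTOR was 0.086, -0.02 and -0.18 in weakly and 0.10 and 0.013 in strongly adherent ones. RNA integrity values were not used here, and their part in the length trend was not tested. The trend was fitted with the kinases among the genes.

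**Figure D3:**
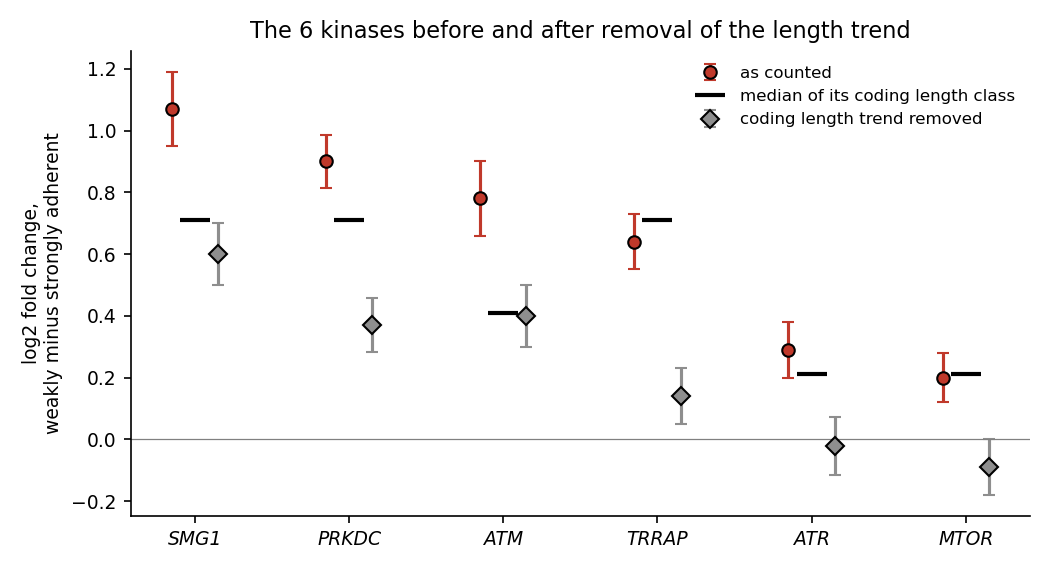
Log2 fold change, weakly minus strongly adherent, of each kinase as counted (red circles) and with the coding length trend removed (grey diamonds), both with error bars of 1 SE, beside the median of all tested genes in its length class (black bars). SMG1 keeps 0.60, ATM 0.40 and PRKDC 0.37 of log2 difference, and ATR and MTOR fall to just under 0.

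The difference between the dates was not used to choose the kinases and could be tested, in the 4 libraries of 6 and 15 March with adhesion as a covariate and 1 residual degree of freedom. ATM was higher on 15 March by 0.32 on the log2 scale (SE 0.078, adjusted p = 0.0013 in edgeR), with differences of 0.30 in the weakly and 0.35 in the strongly adherent pair of libraries. SMG1 was higher by 0.25 (SE 0.07, adjusted p = 0.0082 in edgeR), which came from the strongly adherent libraries (0.44) more than from the weakly adherent ones (0.09); whether these differ was not tested. PRKDC missed the threshold narrowly at 0.19 (SE 0.068, adjusted p = 0.053 in edgeR). ATR (0.15, adjusted p = 0.27), MTOR (-0.11, adjusted p = 0.33) and TRRAP (-0.045, adjusted p = 0.77) did not pass edgeR's test. Thus 2 of the 6 were higher and none lower, where 6.74% of all 13249 genes tested were higher and 2.55% lower. By coding length, 13 of 79 genes over 10 kb, 5 of 74 of 8 to 10 kb and 11 of 191 of 6 to 8 kb were higher.

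The date calls depended on the tool and on length, and in simulated data this comparison made more false calls than its threshold allows. DESeq2's Wald test called none of the 6, at adjusted p = 0.19 for ATM and 0.34 for SMG1. With the coding length trend removed ATM kept its call (log2 fold change 0.24, edgeR adjusted p = 0.027) and SMG1 lost it (0.16, adjusted p = 0.15). Between the dates genes over 10 kb had a median log2 difference of 0.13, against -0.005 in genes of 6 to 8 kb. The differences of ATM and SMG1 between the adhesion groups were larger, at 0.78 and 1.07. Since the adhesion comparison chose the kinases, these sizes are no fair comparison with the date steps.

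**Figure D4:**
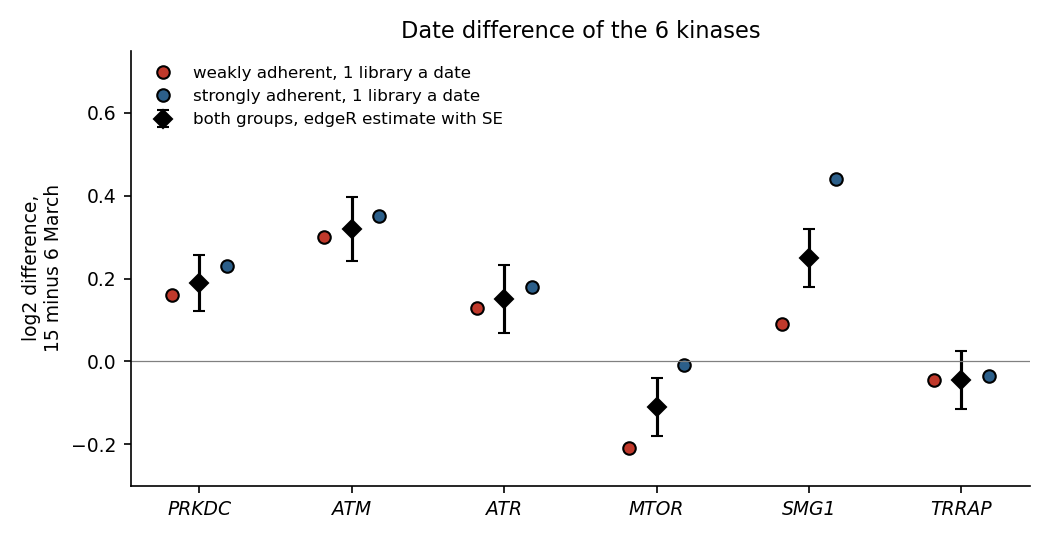
Log2 difference of each kinase, 15 minus 6 March, in the weakly adherent libraries (red), in the strongly adherent libraries (blue) and estimated over both groups (black, error bars of 1 SE). ATM is 0.30 and 0.35 higher in the weakly and strongly adherent pair, SMG1 is higher mainly in the strongly adherent pair, and MTOR and TRRAP lie below 0.

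Genes that work with these kinases were set beside all genes in the test between the adhesion groups. In 12 lists of partners, activators, targets and relatives, 221 of 223 genes were tested, and with edgeR's adjusted p under 0.05 3 were higher and 4 lower in weakly adherent cells, which is 1.36% and 1.81%, beside 1.77% and 0.918% of all genes. At an unadjusted p under 0.05 there were 26 of the 221, where 14.2% of all genes were. Counts of single lists below are to be read beside these shares of all genes, by which a short list would often hold no call. The median log2 fold change of the 221 was 0.0043, and 112 were positive and 109 negative. With the date as a block 13 were higher and 8 lower, where 6.2% and 5.28% of all genes were. With the coding length trend removed 2 were higher and 1 lower, beside 0.94% and 1.05% of all genes, and with the block as well 7 and 10, beside 4.47% and 5.23%.

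The chaperones that fold and assemble newly made kinases of this family, in the TTT and R2TP complexes with HSP90, gave 0 calls among 9 genes (median log2 fold change -0.0045; 0 genes at an unadjusted p under 0.05, and 0 in edgeR with the date block). TELO2 had 42.5, 42.5 and 46.7 CPM in weakly adherent libraries, against 52.9 and 47.5 CPM in strongly adherent ones (log2 fold change -0.19, SE 0.089, adjusted p = 0.35 in edgeR). TTI1, its partner, had a log2 fold change of -0.18 (with SE 0.085 and adjusted p = 0.36 in edgeR). TELO2 and TTI1 were below the strongly adherent range in every weakly adherent library, but neither passed the test.

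For PRKDC, the DNA-binding Ku subunits differed by less than the spread between libraries. XRCC5 had 483 ± 28.7 CPM in weakly and 499 ± 27.5 CPM in strongly adherent cells, and XRCC6 487 ± 35.5 and 496 ± 25.1 CPM (SD, n = 3 and n = 2), with log2 fold changes of -0.045 (SE 0.077) and -0.026 (SE 0.08). Of 11 end-joining genes 0 were called (median -0.035; 0 at an unadjusted p under 0.05, and 0 in edgeR with the date block). The nuclease DCLRE1C, which PRKDC activates, had a log2 fold change of 0.16 (edgeR adjusted p = 0.52), and the polymerase POLM -0.13 (adjusted p = 0.65).

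MCM4, a subunit of the replicative helicase and the head-to-head neighbour of PRKDC, was lower. It had 222, 239 and 237 CPM in weakly adherent libraries, against 289 and 292 CPM in strongly adherent ones, and fell 1.25-fold (log2 fold change -0.32, SE 0.07, adjusted p = 0.03 in edgeR). The call ended whichever of the 5 libraries was left out, with an adjusted p of up to 0.19 without the strongly adherent library dated 15 March, and it stood with the coding length trend removed (0.04). NPAT, the histone gene activator beside ATM, had 37.2, 46.6 and 46.5 CPM in weakly and 44.5 and 52.1 CPM in strongly adherent libraries, which overlap (log2 fold change -0.16, edgeR adjusted p = 0.64). Within dates NPAT was lower by both pairs, at -0.26 and -0.16, with an edgeR adjusted p of 0.064 with the date block. With the coding length trend removed as well it had -0.30 and passed (edgeR adjusted p = 0.0041). C11orf65 had at most 0.364 CPM in any library.

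In the lists around ATM and ATR no gene passed without the date block. Of 13 genes of double-strand break signalling 0 were called (median -0.021, with 2 genes at an unadjusted p under 0.05, and 1 higher in edgeR with the date block). The MRN complex, which brings ATM to breaks, had log2 fold changes of -0.033 for MRE11A, 0.009 for RAD50 and -0.027 for NBN, none of which passed edgeR's test (adjusted p = 0.94, 0.99 and 0.96). MDC1, the mediator that binds marked histones at breaks and has a coding sequence of 6270 bases, had 142, 122 and 122 CPM in weakly adherent libraries, against 106 and 108 CPM in strongly adherent ones (log2 fold change 0.27, edgeR adjusted p = 0.14, and 0.00023 with the date block). Removing the coding length trend as well as blocking left MDC1 at 0.079 (edgeR adjusted p = 0.6). The ATM target CHEK2 had a log2 fold change of 0.28 (edgeR adjusted p = 0.34).

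Of 16 genes of the ATR checkpoint 0 were called and 12 were negative (median -0.069; 6 at an unadjusted p under 0.05, and 3 lower in edgeR with the date block). ATRIP, the subunit that recruits ATR, had 17.2 ± 1.31 CPM in weakly and 19 ± 0.504 CPM in strongly adherent cells (SD, n = 3 and n = 2; log2 fold change -0.15, edgeR adjusted p = 0.63). TOPBP1, an ATR activator, and CHEK1, its target kinase, had log2 fold changes of -0.044 and -0.12. CLSPN, the mediator that presents CHEK1 to ATR, had 120, 132 and 129 CPM in weakly adherent libraries, against 147 and 154 CPM in strongly adherent ones, and did not pass (log2 fold change -0.24, edgeR adjusted p = 0.12, and 0.00092 in the fit blocked by date). The phosphatase CDC25A, whose breakdown the checkpoint triggers, had a log2 fold change of -0.25 (edgeR adjusted p = 0.13, or 0.024 with the date block).

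Among the 38 genes of the MTOR complexes and their nutrient inputs, 1 rose and 0 fell (median -0.014; 4 higher and 0 lower when blocked by date). It was SESN3, a sestrin that holds MTOR complex 1 back, at low levels: 4.75, 5.67 and 4.45 CPM in weakly adherent libraries, against 2.68 and 2.5 CPM in strongly adherent ones (log2 fold change 0.93, SE 0.19, adjusted p = 0.023 in edgeR). That call ended without either strongly adherent library or without the weakly adherent one of 12 March (adjusted p up to 0.15). RPTOR, the scaffold of complex 1, had a log2 fold change of 0.061 (SE 0.078), and MLST8, shared by both complexes, -0.075 (SE 0.087). RICTOR, the scaffold of complex 2, had 47.7, 67.3 and 65 CPM in weakly and 35.4 and 47.8 CPM in strongly adherent libraries, which overlap (log2 fold change 0.53, SE 0.18, adjusted p = 0.24 in edgeR, and 9.3e-07 blocked by date). RICTOR also differed between the dates, by 0.44 (edgeR adjusted p = 3.6e-06). With the date block and the coding length trend removed RICTOR, with 5199 coding bases, had 0.29 (edgeR adjusted p = 0.0051).

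Of 19 substrates and effectors of MTOR 0 rose and 1 fell (median -0.018, and the same counts with the date block). SGK1, a kinase activated through MTOR complex 2, had 21.7, 17.3 and 23.2 CPM in weakly adherent libraries, against 33.4 and 29.4 CPM in strongly adherent ones (log2 fold change -0.60, SE 0.12, adjusted p = 0.024 in edgeR). The call ended without the strongly adherent library dated 6 March (adjusted p = 0.19) and without the weakly adherent one of 12 March. The adaptor GRB10, an MTOR substrate, had a log2 fold change of 0.14 (edgeR adjusted p = 0.44). Of 20 lysosome and autophagy genes of the TFEB network, which MTOR holds back, 0 were called (median -0.0027; 1 at an unadjusted p under 0.05, and 0 with the date block in edgeR). GABARAPL1 and NEU1, those with the smallest p, had log2 fold changes of 0.23 and 0.13 (edgeR adjusted p = 0.34 and 0.49).

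Of 15 nonsense-mediated decay factors besides SMG1 0 were called (median 0.012; 1 at an unadjusted p under 0.05, and 1 higher in edgeR with the date block). SMG8 and SMG9, which bind and restrain SMG1, had 38.3 ± 1.47 and 92.4 ± 2.52 CPM in weakly adherent cells, against 36.6 ± 1.59 and 103 ± 7.81 CPM in strongly adherent cells (SD, n = 3 and n = 2), with log2 fold changes of 0.065 and -0.15. UPF1, the helicase that SMG1 phosphorylates, had a log2 fold change of 0.042 (SE 0.075). NBAS, with 7116 coding bases, had 56.2, 56.1 and 59.8 CPM in weakly adherent libraries, against 48 and 44.3 CPM in strongly adherent ones (log2 fold change 0.31, edgeR adjusted p = 0.075, or 0.00039 with the date block). NBAS had 0.055 once the coding length trend was removed as well (edgeR adjusted p = 0.78). Of 12 transcripts known to be sensitive to this decay 0 rose and 1 fell, and 9 were positive (median 0.12; 1 higher and 1 lower when blocked by date). The growth arrest gene GADD45A fell 1.32-fold (43.7 ± 4.11 against 57.7 ± 3.72 CPM, SD, n = 3 and n = 2, edgeR adjusted p = 0.044), and the stress factor DDIT3 differed by 0.27 on the log2 scale (adjusted p = 0.19). The call on GADD45A held only with the weakly adherent library of 6 March as the one left out, at up to 0.31 otherwise, and narrowly ended with the coding length trend removed.

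The subunits of TRRAP's acetyltransferase complexes, with MYC, held the other higher calls: 2 of 35 rose and 1 fell (median 0.035; 3 higher and 1 lower when blocked by date). BRD8, a bromodomain subunit of the TIP60 complex, had 151, 157 and 129 CPM in weakly adherent libraries, against 98.2 and 94.7 CPM in strongly adherent ones. Its rise of 1.51-fold (log2 fold change 0.59, SE 0.09, adjusted p = 0.0035 in edgeR) kept its call whichever library was left out (adjusted p up to 0.029) and with the coding length trend removed (log2 fold change 0.54, adjusted p = 0.0037). EP400, the ATPase of that complex, with 9372 coding bases, had 88.8, 72.4 and 79.1 CPM in weakly adherent libraries, against 57.2 and 59.3 CPM in strongly adherent ones (log2 fold change 0.46, SE 0.093, adjusted p = 0.021 in edgeR). With the coding length trend removed EP400 had 0.068 (adjusted p = 0.89), and its call also ended without either strongly adherent library or without the weakly adherent one of 15 March (adjusted p up to 0.15). KAT5, the acetyltransferase itself, had a log2 fold change of 0.032 (SE 0.075).

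MYC, which recruits TRRAP to its target genes, had 127, 107 and 115 CPM in weakly adherent libraries, against 159 and 143 CPM in strongly adherent ones, and fell 1.29-fold (log2 fold change -0.37, SE 0.085, adjusted p = 0.038 in edgeR). Without the strongly adherent library dated 6 March the adjusted p was 0.32, and the call also ended without the weakly adherent library of 12 or of 15 March and with the coding length trend removed (adjusted p = 0.053). Of 18 targets of p53, which ATM and ATR signal to but which is mutant in this line, 0 rose and 1 fell (median 0.0033; 0 and 2 with the date block). CDKN1A, the cell cycle inhibitor, fell 1.28-fold (152 ± 3.54 against 195 ± 26.8 CPM, SD, n = 3 and n = 2, edgeR adjusted p = 0.047), a call that ended with any library left out except the strongly adherent one of 15 March (adjusted p up to 0.52), and with the coding length trend removed (0.057). CCNG1 had a log2 fold change of 0.30 (edgeR adjusted p = 0.33).

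The lipid kinases that share the catalytic fold did not pass. Of 15 tested genes in the list of these lipid kinases, their subunits and related genes, 0 were called (median 0.039; 2 at an unadjusted p under 0.05, and 3 higher in edgeR with the date block). PIK3CA and PIK3C2A, with 3207 and 5061 coding bases, had log2 fold changes of 0.22 and 0.29 (edgeR adjusted p = 0.32 and 0.22, the second 0.0012 with the date block). PIK3C2A had 0.16 once the coding length trend was removed as well (edgeR adjusted p = 0.19). PI4KA, the longest relative named here, with 6309 coding bases, had 81.2 ± 6.97 CPM in weakly and 77.8 ± 3.66 CPM in strongly adherent cells (SD, n = 3 and n = 2; log2 fold change 0.062, SE 0.087). With the date block and the coding length trend removed PI4KA had -0.23 (edgeR adjusted p = 0.024).

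Partner genes were also grouped by coding length, in groups set after their values were seen. The 13 of 4 to 6 kb had a median log2 fold change of 0.061, beside 0.11 for all 603 genes of that length. The 47 of 2 to 4 kb had a median of 0.012, beside 0.013 for 2876 genes, and the 151 under 2 kb had -0.012, beside -0.015 for 8401 genes. Over 6 kb, the length of the kinases, MDC1, NBAS, EP400 and PI4KA had 0.27, 0.31, 0.46 and 0.062. All 346 genes of that length had a median of 0.30, and the median of the partners over 6 kb is not reported here. Between the dates 16 partner genes were higher and 4 lower on 15 March, 7.24% and 1.81% of those tested, beside 6.74% and 2.55% of all genes.

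**Figure D5:**
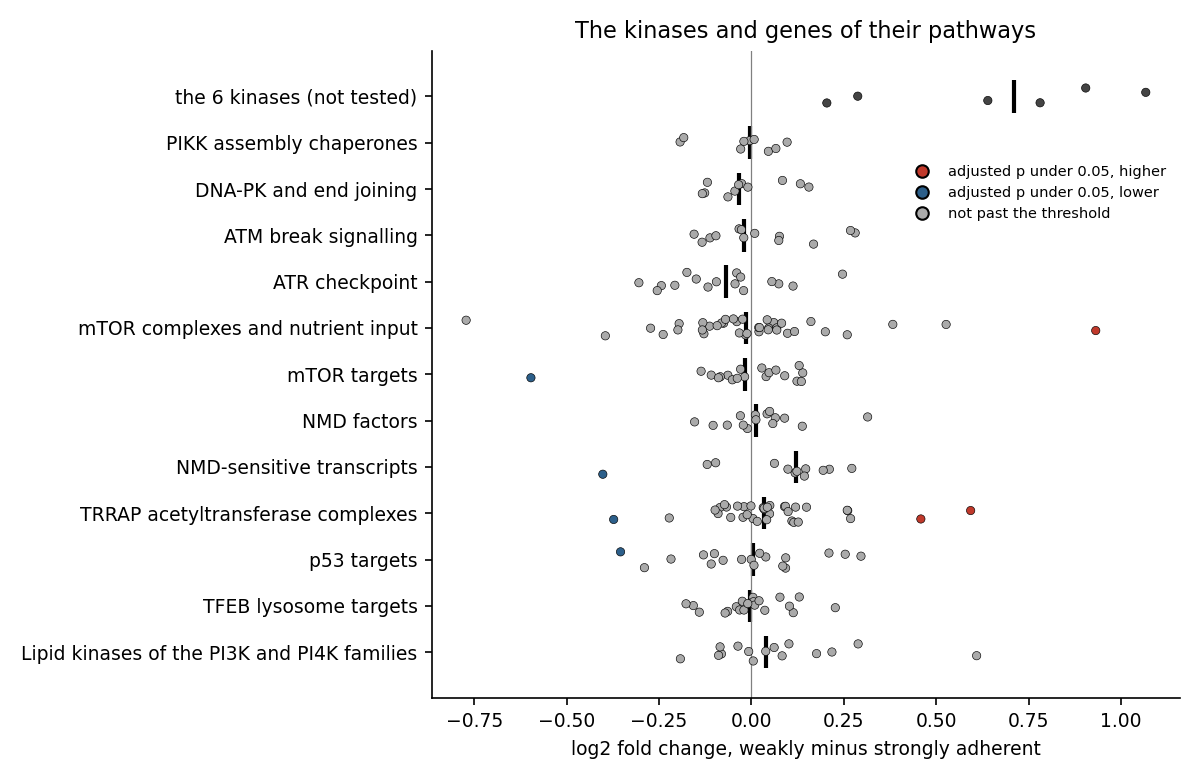
Log2 fold change, weakly minus strongly adherent, of each tested gene in the 12 partner lists, with the 6 kinases in the top row and black lines at the medians; coloured points passed edgeR's adjusted p of 0.05 as higher (red) or lower (blue). The kinases lie at 0.20 to 1.07, and the medians of the partner lists lie between -0.069 and 0.12. These sets differ in length: the median coding length is 10078 bases for the kinases and 579 to 2976 bases in the partner lists.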

How the data were processed

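Messenger levels were measured by RNA sequencing in 3 weakly and 2 strongly adherent libraries of MDA-MB231 cells. TruSeq stranded libraries were read as 50 bp single ends, per the labels' protocols. Tools listed in the submitters' processing notes are cutadapt, FastQC, STAR, HTSeq and DESeq2, with hg19 as the build; versions, annotation and strand setting were not given in the sources used here. The authors deposited raw counts per gene symbol and log2 values, which equal log2(count / size factor + 1), with recovered and raw counts at most 0.000517 reads apart. HTSeq's 5 summary rows were left out, and reads that were not unique were 16% to 16.8% of all.

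The deposited counts went into edgeR 4.0.16 (R 4.3.3) as a robust quasi-likelihood fit across all genes after TMM and filterByExpr, weakly minus strongly adherent, with 3 residual degrees of freedom and a Benjamini-Hochberg adjusted p under 0.05 as threshold. A standard error is the log2 fold change over the square root of F. CPM values are scaled by TMM, and log2 CPM for pairs and profiles had a prior count of 2. Lengths and GC content came from GENCODE release 29 by symbol, with older symbols matched through RefSeq, and 91.9% of the tested genes had a coding length. The length trend is a natural spline with 5 degrees of freedom per library, used as an offset.

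The titles give dates, so libraries of 1 date were taken as pairs. Paired libraries' departures from their group means had a correlation of 0.335 (6 March) and 0.204 (15 March). The weakly adherent library of 12 March, which has no pair, gave -0.156 and 0.156 against the strongly adherent libraries of 6 and 15 March. Departures of the strongly adherent libraries from their mean are mirror images, and those of the weakly adherent ones are tied through their mean. These correlations are therefore not separate checks, and they cannot decide whether libraries of 1 date belong together. The date block gives the weakly adherent library of 12 March no weight and leaves 1 residual degree of freedom. Replicates differed by more than counting noise, with chi-square values of 7.49 to 12.6 for each degree of freedom. Alternatives were DESeq2 1.42.0, limma 3.58.1, other filters and scalings, each library left out, and trends with length and GC content removed. The tests were tried on simulated data, where the share of false calls was above the threshold in the adhesion comparison and more so between the dates.

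The kinases and the gene lists were chosen with earlier results of these data known. The named partners are a set taken from textbook function and the 2 with the smallest p in each list. The result of 1 named gene is not reported here. Promoter motifs were searched in the 250 bases before the start only, in place of the 300 bases planned, to leave out transcribed bases. Genes of like profile are the 2 nearest per kinase. Figures were drawn with matplotlib 3.10.9.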

Additional observations from a re-analysis of the deposited data

Results flagged for a closer look

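The pairs of 6 and of 15 March went opposite ways for 5 named partner genes, with 1 library a group on each date, so the difference between the dates was not tested. The log2 difference, weakly minus strongly adherent, was 0.03 on 6 March and -0.075 on 15 March for the Ku subunit XRCC6. For the MRN nuclease MRE11A it was 0.011 on 6 March and -0.16 on 15 March, and for its partner RAD50 it was 0.085 and -0.0067. For MLST8, a subunit of both MTOR complexes, it was -0.20 and 0.038, and for the lipid kinase PI4KA it was 0.014 and -0.018. None of the 6 kinases changed direction between the dates.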

How the results depend on the processing

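Each kinase kept its direction in all settings without a length trend, and ATR and MTOR turned negative in those that removed the coding length trend. With that trend removed the values were 0.37 for PRKDC, 0.40 for ATM, -0.022 for ATR, -0.089 for MTOR, 0.60 for SMG1, 0.14 for TRRAP and 0.25 for their median; with the date as replicate block as well they were 0.35, 0.42, -0.053, -0.10, 0.63, 0.19 and 0.27. With the transcript length trend removed they were 0.66 for PRKDC, 0.55 for ATM, 0.11 for MTOR, 0.76 for SMG1, 0.42 for TRRAP and 0.48 for the median. Within 6 March alone MTOR was 0.31 and SMG1 1.30, and within 15 March MTOR was 0.11. With 1 library left out PRKDC ran from 0.79 to 1.03, ATM from 0.62 to 0.97, ATR from 0.20 to 0.38, MTOR from 0.15 to 0.26, SMG1 from 0.86 to 1.31 and TRRAP from 0.59 to 0.72.

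All genes called were 235 higher and 122 lower. They were 825 and 702 with the date block, 682 and 531 with the date as a random block in limma-voom, 125 higher with the coding length trend removed, 595 and 696 with that and the block, 203 lower with no filter and 191 lower with the GC trend removed. With 1 library left out they ran from 82 to 238 higher and from 34 to 103 lower, both fewest without the strongly adherent library of 6 March. Partner genes were 13 higher and 8 lower with the block, 11 and 8 with the random block, 7 and 10 with the block and no coding length trend, 5 higher with no filter and 5 with no GC trend, 2 lower in limma-voom and 1 lower with no coding length trend, and 1 to 4 higher and 0 to 3 lower with 1 library left out. Values within a date carry no test, since each group then has 1 library, and no calls were counted there.

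On 15 against 6 March PRKDC (0.19) passed in limma-voom and with a filter of 1 CPM, ATM (0.32) and SMG1 (0.25) did not pass in DESeq2, nor SMG1 (0.16) with no coding length trend, so that 0 and 1 kinases were called there. Leaving out a library of that comparison leaves no residual degree of freedom and was not run. Without the 10 most abundant genes in the total, the share of the kinases was 0.0971% in weakly and 0.0597% in strongly adherent cells. By transcript length 4 kinases in each group took another place, and the order of levels was PRKDC, MTOR, TRRAP, SMG1, ATR, ATM in weakly and PRKDC, MTOR, TRRAP, ATR, SMG1, ATM in strongly adherent cells. PI4KA turned to -0.23 with the block and no coding length trend. With 5 libraries and 3 residual degrees of freedom, the causes of these shifts were not tested.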
